A study of Mus musculus with 2 samples.

Results

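The genes described here encode chromatin modifiers and remodellers. They were picked by a rule on gene names: every gene whose deposited name begins with Smarc, Kdm, Kmt, Setd, Sirt or Prmt, the numbered Arid, Chd, Brd, Cbx and Hdac genes, Ezh1, Ezh2, Eed and Suz12. The name rule found 90 genes among 8262 named genes in the tables of both libraries, of which Brd3os, a neighbour of Brd3, matched by spelling only. A site was a listed position with at least 20 reads in replicate 2, and 33 of the 90 genes carried 158 such sites, as against 3919 of the 8262 genes in all with at least 1 site. Both libraries are native poly(A) RNA of mouse retinal organoids, tissue aggregates that stem cells form in culture, taken at day 6 of differentiation. Both come from wild-type cells of the Rx:GFP line, which carries a fluorescent reporter named for the early eye gene Rx (Rax), and both were grown with AGN at 0.1 µM. There is 1 group with 2 replicates and no untreated or mutant group, so conditions could not be compared. Nothing in the labels says whether the replicates came from separate cultures, so the spread between them may be technical. Of 7 eye-field markers, 6 were listed in each library, while none of 4 pluripotency markers or of 4 markers of other germ layers was listed. Listing needs reads and a fitting sequence, so it is not a measure of level.

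Chromatin proteins act in a division of labour. Remodellers use ATP to slide or eject nucleosomes, writers such as methyltransferases place marks on histone tails, erasers such as demethylases and deacetylases remove them, and readers with chromodomains or bromodomains bind them. N6-methyladenosine (m6A) is a methyl mark on adenosines of messenger RNA, placed mainly by the METTL3 complex and known to influence the stability and translation of the marked RNA. In direct RNA sequencing the strand itself passes a nanopore, and a methylated base changes the current. All deposited positions lie on 4 stretches of 5 bases, which fit the known sequence preference of the writer complex. They are shown because every comparison below is made within them, with the central adenosine, the base that carries m6A in this context, in capitals.

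class 1: agAct
class 2: ggAca
class 3: ggAcc
class 4: ggAct

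Depth set the frame for all values. In replicate 2 the chromatin genes had 728 listed positions with a median coverage of 10 reads, against 12 reads over the 49371 positions of all other genes. At least 20 reads were reached at 21.7% of the members' positions and at 32.5% of the others. In replicate 1 these shares were 16.7% of 324 positions and 24.5% of 26117. In bulk RNA, fewer cells of a type and less RNA per cell cannot be told apart as a source of low coverage. Among the sites kept, the median coverage in replicate 2 was 36 reads for members and for other genes alike. Replicate 1 listed 111 of the 158 sites (70.3%, beside 74.8% in other genes), 37 of them with at least 20 reads and 74 with fewer. The median coverage of the listed sites in replicate 1 was 13 reads, beside 17 in other genes. The fraction modified is the deposited share of reads scored as modified. Since its denominator is not given in the sources used here, no counting interval was set around a single fraction.

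By 5-mer, chromatin genes resembled the rest of the transcriptome. GGACA made up 36.7% of the member sites (58 of 158; 95% Wilson interval 29.6% to 44.5%) and 35.6% of the 16054 sites of other genes. GGACC made up 24.1% and 22.1%. GGACT made up 20.9% and 24.2%. AGACT made up 18.4% and 18.1%. The share in other genes lay inside the members' interval at each of the 4 (intervals cover counting error only).

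The median fraction modified at member AGACT sites was 0.354 in replicate 1 (16 sites) and 0.353 in replicate 2 (29 sites), against 0.250 and 0.263 in other genes. The members were higher by 0.0969 ± 0.0102 (SD, n = 2). Brd2 supplied 7 of the 29 sites on 3 transcripts. Leaving Brd2 out turned the difference in replicate 1 to -0.123 (12 sites) and left 0.0799 in replicate 2 (22 sites), with a mean of -0.0216. With each gene counted once the mean was -0.0161 ± 0.224 (SD, n = 2). With at least 20 reads in both replicates, which left 2 member sites, it was 0.0124. At GGACC, over all sites, the members were lower in both replicates. Their medians were 0.211 (28 sites) and 0.184 (38 sites) against 0.250 and 0.231, a difference of -0.0434 ± 0.00552 (SD, n = 2). This SD also reflects the unlike sets of sites. Restricted to the 28 member sites that both libraries listed, the replicates disagreed in direction, with -0.0395 from replicate 1 but 0.0229 from replicate 2. With at least 20 reads in both replicates, which left 11 member sites, the mean difference turned to 0.0506.

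At GGACA and GGACT, over all sites, the medians of the 2 replicates did not share a direction. Member GGACA sites had a median of 0.750 in replicate 1 (42 sites) and 0.638 in replicate 2 (58 sites), where other genes had 0.710 and 0.667. Member GGACT sites had 0.333 (25 sites) and 0.217 (33 sites), where other genes had 0.250 and 0.231. The differences of 0.00565 ± 0.0490 and 0.0350 ± 0.0684 (each SD, n = 2) were smaller than their SD, which also reflects the unlike sets of sites in each replicate. At the 42 GGACA sites listed in both, the differences were 0.0403 and -0.042 in replicates 1 and 2. At the 25 GGACT sites listed in both they were 0.0833 and 0.098. Without Brd2 both replicates were above 0 at each, with 0.114 and 0.0295 at GGACA (0.0716 ± 0.0596) and 0.0833 and 0.0769 at GGACT (0.0801 ± 0.00453; each SD, n = 2). With 20 reads in both replicates the values were 0.101 ± 0.0491 at GGACA and 0.0848 ± 0.0257 at GGACT (each SD, n = 2). A paired exact permutation test over only 2 replicates has a smallest possible p of 0.5, so none of the 4 differences could pass one. At every 5-mer the interquartile ranges of members and other genes overlapped. Means differed from medians: the member mean was above that of other genes at every 5-mer in both replicates. At GGACC it was 0.347 against 0.319 in replicate 1 and 0.324 against 0.306 in replicate 2.

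**Figure D1:**
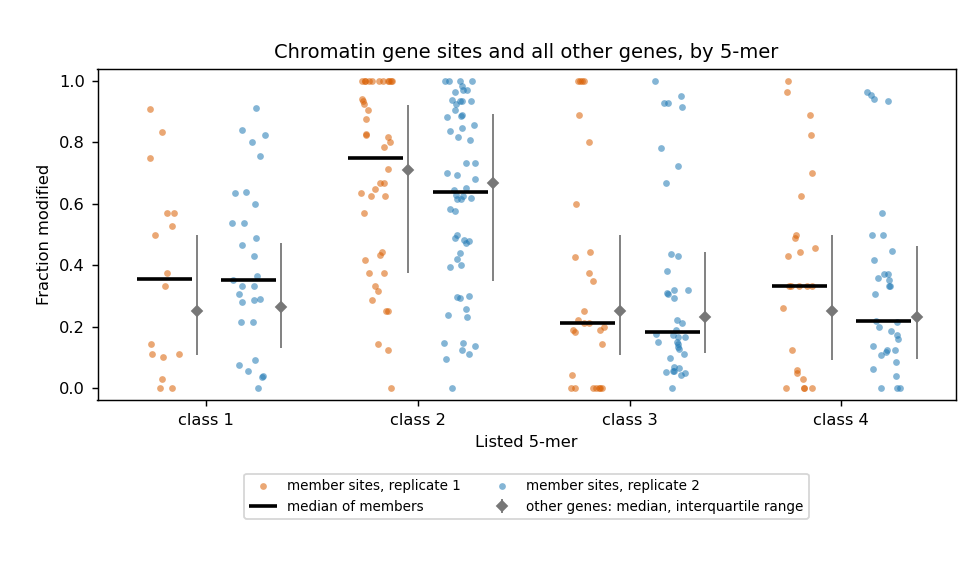
Fraction modified at chromatin gene sites by 5-mer class (class 1 is AGACT, class 2 is GGACA, class 3 is GGACC, class 4 is GGACT), with 1 point per site and replicate; black bars are member medians, and grey diamonds with lines are the median and interquartile range of all other genes. Member points span nearly the whole range in every class, and the member medians lie inside the other genes' interquartile range.

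Counts of sites with a fraction of at least 0.5 did not repeat all of the differences between medians. At GGACA 37 of 58 member sites (63.8%) reached it in replicate 2, beside 64.1% of all GGACA sites, and 29 of 42 (69.0%) in replicate 1, beside 67.9%. At GGACC it was 8 of 38 (21.1%) beside 21.4%, and 7 of 28 (25%) beside 25.5%. At GGACT it was 7 of 33 (21.2%) beside 23.2%, and 7 of 25 (28.0%) beside 28.3%. These 3 pairs of shares are near the background and are no result about the members. AGACT departed most, with 10 of 29 (34.5%) beside 24.1% in replicate 2 and 7 of 16 (43.8%) beside 27.6% in replicate 1, and it holds the repeated Brd2 sites.

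At a level of 0.9, chosen after the values were seen, member shares stood farther from the background than at 0.5 at GGACC and GGACT in both replicates and at GGACA in replicate 1. The level was reached by 5 of 38 member GGACC sites (13.2%) in replicate 2, beside 3.46% of all GGACC sites, and 4 of 28 (14.3%) in replicate 1, beside 4.95%. Of these, 3 in replicate 2 and 2 in replicate 1 were repeats of a single Brd2 position on several transcripts, and the others lay in Cbx1 and Hdac1. At GGACT it was 4 of 33 (12.1%) beside 3.9%, in Cbx1, Cbx2, Cbx5 and Prmt3, and 2 of 25 (8%) beside 6.2%. At GGACA it was 14 of 58 (24.1%) beside 24.2%, and 15 of 42 (35.7%) beside 28.7%. At AGACT it was 1 of 29 (3.45%) beside 1.53%, and 1 of 16 (6.25%) beside 1.44%, the former in Prmt3 and the latter in Brd7. With counts of 1 to 5 and shared transcripts, these shares are descriptions and were not tested.

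To set sites of different 5-mers side by side, each fraction was taken minus the median of other genes for its 5-mer and replicate, called the adjusted fraction below. It was above 0 at 80 of 158 member sites in replicate 2 (50.6%), beside 49.4% of all sites, and at 59 of 111 in replicate 1 (53.2%), beside 48.9%. The median over members was 0.0151 in replicate 2 and 0.0833 in replicate 1. The role groups spread around 0, and most rest on few genes. Those with an adjusted median of the same sign in both replicates were the KMT and SETD, Polycomb, HDAC and BRD genes above 0, and the SWI/SNF, CHD, KDM and sirtuin genes below 0. For the KDM genes this did not hold with each gene counted once, where the value was -0.0213 ± 0.0564 (SD, n = 2). HP1 genes, so counted, turned from -0.0167 to 0.223 ± 0.0932, and BRD genes went from 0.120 to 0.296 ± 0.00803 (each SD, n = 2). PRMT genes gave 0.0554 ± 0.0331 and other SNF2 ATPases 0.0913 ± 0.0699 (each SD, n = 2). Brd2 held 24 of the 29 BRD sites, with an adjusted median of -0.043 in replicate 2. The sirtuin value is that of Sirt2 alone.

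**Figure D2:**
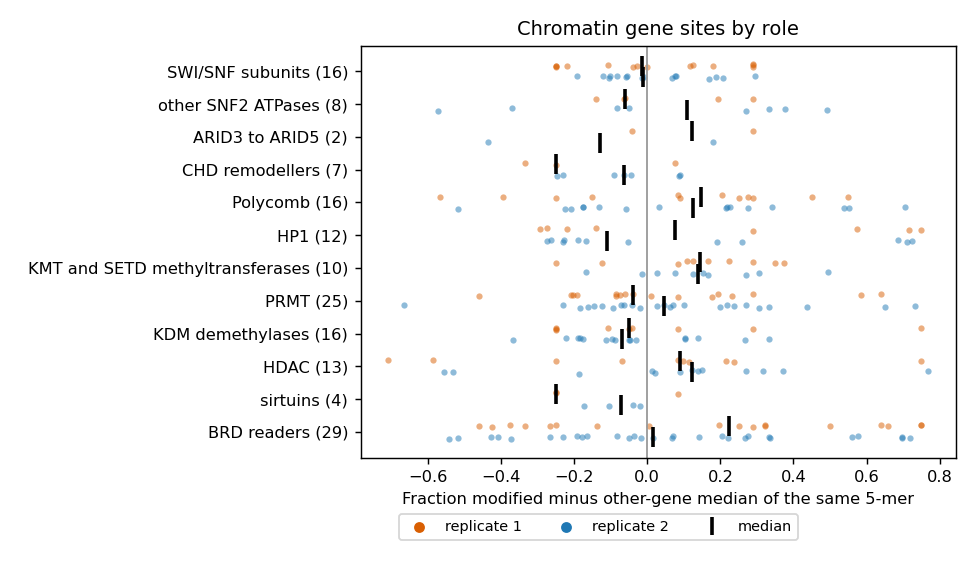
Adjusted fraction (fraction modified minus the median of other genes for the same 5-mer) on the horizontal axis by role group, with the number of replicate 2 sites in brackets, 1 point per site, and black bars for the median in each replicate. The KMT and SETD methyltransferases have medians of 0.145 and 0.139 in the 2 replicates, while single sites of most groups lie on both sides of 0.

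Among remodellers, 4 of the 11 listed SWI/SNF genes had sites (16 in all). SWI/SNF complexes are nucleosome-ejecting machines built around the ATPase Smarca4 or Smarca2. The adjusted median was -0.0139 in replicate 1 and -0.0121 in replicate 2, near 0. Smarcd1 (chromosome 15, 99600010 to 99611872; gene coordinates as deposited, with the build not named in the tables), a subunit that links the complex to transcription factors, had 8 sites and a mean fraction of 0.519 ± 0.00394 (SD, n = 2) over the 7 listed in both. Its GGACA at position 2865 had 1 from 26 reads of replicate 1 and 0.963 from 87 reads of replicate 2. The GGACA at position 2942 had 1 over 26 reads and 0.836 over 88. Its 3 GGACC sites read lower than its GGACA sites. At position 1421 the fraction was 0 over 15 reads and 0.128 over 59, while positions 817 and 1175 had 0 and 0.222 in replicate 1 and 0.306 and 0.310 in replicate 2, above the GGACC median of other genes in that replicate. High and low sites thus shared 1 transcript, apart by 5-mer.

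Smarce1, the subunit with an HMG box, had 3 sites, all with at least 31 reads in both replicates. The GGACA at position 1759 had 0.826 and 0.733 in replicates 1 and 2. The GGACC at position 1806 had 0.211 and 0.149, and the GGACT at position 2638 had 0.0312 and 0.0390 over 34 and 88 reads, the third-lowest mean of the 37 sites with 20 reads in both. Smarca4 carried 4 GGACC sites on 2 transcripts, from 0.111 to 0.438 in replicate 2. Smarcb1, a core subunit, had 1 site, a GGACC at position 1023 with 0.250 and 0.222 over 22 and 46 reads. Arid1a, Arid1b, Arid2, Smarcc1, Smarcc2, Smarcd2 and Smarcd3 stayed below 20 reads throughout replicate 2. Arid1a illustrates the limit, with 22 positions and at most 13 reads.

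Smarca5 (chromosome 8, 81425136 to 81466126), the ATPase of ISWI complexes, which space nucleosomes evenly, had 6 sites covering nearly the whole range. Its GGACA at position 1992 had a fraction of 1 in both replicates over 27 and 86 reads. The GGACA at position 2516 had 0.647 and 0.617, and the GGACC at position 3480 had 0.191 and 0.149 over 54 and 130 reads. Replicate 2 alone listed GGACA sites at position 563 with 0.0952 over 60 reads and at position 3086 with 0.296 over 114 reads. GGACA sites of this transcript therefore ran from 0.0952 to 1 in the same library. Smarcad1, a remodeller involved in DNA end resection, had 2 sites: its AGACT at position 344 had 0.111 from 15 reads of replicate 1 and 0.640 from 36 of replicate 2, and its GGACT at position 410 had 0.444 and 0.5. Smarca1 and Smarcal1 had none. Arid3b, a DNA-binding ARID protein, had 2 GGACA sites at 20 reads each, of which position 3976 read 1 over 8 reads and 0.231 over 20. Arid3a and Arid4b had none.

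CHD proteins join a helicase to paired chromodomains, and 3 of 8 listed genes had sites (7 in all). Chd4, the ATPase of the NuRD complex, had 3: the GGACA at position 5461 of one transcript had 0.786 over 20 reads and 0.577 over 48, the GGACA at position 5621 of another had 0.375 over 15 and 0.419 over 58, and the GGACC at position 5798 had 0.318 over 59 reads in replicate 2. Chd1 had 3 sites in replicate 2 only, from 0 to 0.353 over 22 reads each. Chd7, mutated in CHARGE syndrome with its eye defects, had 1, a GGACT at position 10000 with 0 over 6 reads and 0.188 over 23. Chd1l, Chd3, Chd6, Chd8 and Chd9 were below 20 reads.

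Polycomb proteins keep developmental genes silent: Ezh2, Eed and Suz12 form the methyltransferase PRC2, and Cbx2, Cbx6 and Cbx8 are chromodomain subunits of PRC1. Sites were found in 3 of the 6 listed genes (16 sites), with an adjusted median of 0.147 in replicate 1 and 0.125 in replicate 2. The adjusted fraction was above 0 at 9 of 16 sites in replicate 2 (56.25%, beside 49.4% of all sites). Cbx2 supplied 9 of the 16 sites, and with each gene counted once the mean of the replicates moved from 0.136 to 0.0887. Ezh2 (chromosome 6, 47507073 to 47572275) had 5 sites on 3 transcripts, from 0.441 to 0.700 in replicate 2. On its deepest transcript the GGACT at position 1301 had 0.333 over 29 reads and 0.447 over 82, and the GGACA at position 1929 had 0.316 over 31 and 0.441 over 88. The latter was below the GGACA median of other genes in each replicate. The matched GGACA on transcript ENSMUST00000114618.7, at position 1917, was above it, with 0.8 over 7 reads and 0.700 over 29. Eed (chromosome 7, 89603862 to 89630191) had an AGACT at position 1871 at 0.526 over 35 reads and 0.490 over 75, and a GGACA at position 620 at 0.490 over 68 reads in replicate 2. Replicate 1 alone listed a GGACC near 0 in each, with 0.04 over 27 reads at position 1108 of the deepest Ezh2 transcript and 0.0556 over 24 reads at position 554 of Eed. Suz12 had at most 13 reads, and Ezh1 was not listed.

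Cbx2 (chromosome 11, 118913788 to 118922096) had 9 sites, which split into 4 from 0.783 to 0.936 and 5 from 0.0541 to 0.172 in replicate 2, with none between. The GGACT at position 1584 had 0.700 over 11 reads and 0.936 over 42, and the GGACC at position 1518 had 0.800 over 11 and 0.783 over 41. Its GGACA sites fell on both sides, with 1 and 0.886 at position 1909 and 0.143 and 0.148 at position 1395. Replicate 1 had at most 16 reads over this gene, where position 2530 read 0.455 in place of 0.172. The mean over the 7 sites listed in both was 0.448 ± 0.0123 (SD, n = 2). Cbx6 and Cbx8 had no site, and Cbx7 was not listed.

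All 3 HP1 genes, whose proteins bind methylated histone H3 in heterochromatin, had sites (12 in all). Cbx5 (chromosome 15, 103099971 to 103148243) carried the deepest member GGACT above 0.9: at position 8515 the fraction was 0.965 over 67 reads and 0.941 over 146, or 0.953 ± 0.0168 (SD, n = 2), where other genes had a GGACT median of 0.231 in replicate 2. Near its start, the GGACA sites at positions 153 and 211 had 0.926 and 0.857 in replicate 2. Its AGACT at position 4937 read 0.111 over 10 reads and 0 over 22. Cbx1 (chromosome 11, 96679953 to 96699466) had both extremes. Its GGACC at position 743 had 1 and 0.917, its GGACT at position 830 had 0.824 and 0.955, and its AGACT at position 1780 had 0.0312 over 34 reads and 0.0357 over 67, the second-lowest mean, after Prmt7 position 1001, of the 37 sites with 20 reads in both. Cbx3 had a single GGACA on each of 3 transcripts, with 0.393, 0.478 and 0.615 in replicate 2, and the deepest of them read 0.435 from 37 reads of replicate 1 and 0.393 from 87 of replicate 2.

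Of the 12 listed genes named Kmt or Setd, mostly SET-domain methyltransferases, 2 had sites. Setd3 (chromosome 12, 108072690 to 108145573), a SET-domain enzyme known for methylating actin rather than histones, held 8 of the 10 sites, so the group's value is mainly that of Setd3. The adjusted fraction was above 0 at 8 of 10 sites in each replicate (80%), beside 49.4% of all sites in replicate 2 and 48.9% in replicate 1. Its GGACA sites at positions 1375, 1432 and 1991 had 0.875, 0.818 and 0.933 in replicate 1 and 0.818, 0.692 and 0.971 in replicate 2. The GGACC at position 1857 was high for its 5-mer, with 0.6 over 15 reads and 0.724 over 38. The GGACT at position 2326 was low, with 0 over 16 reads and 0.0625 over 42. The gene mean was 0.536 ± 0.0114 (SD, n = 2). Kmt5c, which trimethylates histone H4, had a GGACA at position 1661 with 1 over 8 reads and 0.938 over 21, and a GGACT at position 1320 with 0.333 and 0.357. No site was found in Kmt2b, Kmt2e, Kmt5a, Kmt5b, Setd1a, Setd2, Setd5, Setd6, Setd7 or Setdb1. Setd2 was listed in replicate 1 only, with at most 6 reads.

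Arginine methyltransferases had 25 sites in 4 of 8 genes and adjusted medians of -0.0395 and 0.0445. Prmt1 (chromosome 7, 44625413 to 44635992), the main asymmetric enzyme, had the deepest site of all members, a GGACC at position 912 of transcript ENSMUST00000207370.1 with 0.427 over 219 reads and 0.429 over 481. That is 0.428 ± 0.00141 (SD, n = 2), above the GGACC medians of other genes. The GGACT at position 164 of the same transcript had 0.261 over 83 reads and 0.158 over 165. Prmt5, the main symmetric enzyme, had GGACA sites at positions 1855 and 2441 with 0.636 and 0.625 in replicate 1 and 0.646 and 0.482 in replicate 2, and a GGACT at position 2260 with 0.0588 over 22 reads and 0.0862 over 72.

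Prmt7 (chromosome 8, 106937568 to 106979426), which only monomethylates, had 8 sites, and its mean was 0.423 ± 0.0177 (SD, n = 2) over the 7 listed in both. Its GGACA sites at positions 438 and 1406 were high, at 0.941 and 1 in replicate 1 and 0.971 and 0.884 in replicate 2. Its GGACT at position 1001 had 0.0476 over 21 reads and 0 over 49. Its 4 GGACC sites differed: positions 636 and 1184 had 0.211 and 0.191 in replicate 1 and 0.294 and 0.0682 in replicate 2. Position 1826 had 0.444 over 28 reads and 0.667 over 62, while position 1751, 75 nt upstream, had 0.0417 over 28 and 0.167 over 61. The gap of 0.403 in replicate 1 and 0.5 in replicate 2 exceeded the difference between replicates at either site, although position 1826 itself had the largest replicate difference among the 37 sites. Prmt3, which methylates a ribosomal protein, had 10 sites on 1 transcript, from 0 to 0.963 in replicate 2. Its GGACA sites at positions 200 and 239 read 0.905 and 0 over 23 reads each, and replicate 1 listed neither. The GGACT at position 1818 had 0.889 over 9 reads and 0.963 over 34, and the AGACT at position 2181 had 0.833 over 9 and 0.913 over 35. Prmt2, Prmt6, Prmt8 and Prmt9 had none.

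Demethylases were represented by 3 of 14 listed genes (16 sites). The adjusted fraction was above 0 at 5 of 16 sites in replicate 2 (31.25%, beside 49.4% of all sites) and 3 of 9 in replicate 1 (33.3%, beside 48.9%). Kdm1a (chromosome 4, 136277851 to 136330034), a flavin-dependent demethylase of histone H3, supplied 9 sites with a mean of 0.225 in replicate 2. Its 2 transcripts shared 4 sites of the same 5-mers at a constant offset of 24 nt. At these the fraction was at most 0.2 on one transcript and at most 0.333 on the other in replicate 2, a median of 0.0219 apart. Replicate 1 was too shallow to compare them, with the matched GGACT at 0 over 11 reads on one and 1 over 6 on the other. The exception was a GGACA at position 1243 of transcript ENSMUST00000116273.8, with 1 over 23 reads in replicate 2 and no listing in replicate 1. Kdm5b, which removes a histone H3 mark of active promoters, had 6 sites from 0.118 (GGACT, position 4024) to 0.933 (GGACA, position 4057) over 24 reads each in replicate 2, positions that replicate 1 did not list. Kdm3a had 1 GGACA with 0.667 over 6 reads and 0.3 over 20. The remaining 11, Kdm1b, Kdm2a, Kdm2b, Kdm3b, Kdm4a, Kdm4b, Kdm5a, Kdm5c, Kdm6a, Kdm6b and Kdm8, stayed below 20 reads.

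Histone deacetylases had 13 sites in 4 of 8 genes. They were above the 5-mer median at 10 of 13 in replicate 2 (76.9%, beside 49.4% of all sites) and 6 of 10 in replicate 1 (60%, beside 48.9%). Hdac2 (chromosome 10, 36850540 to 36877885), a class I enzyme of the NuRD and Sin3 complexes, had a mean of 0.445 ± 0.00493 (SD, n = 2) over its 4 sites listed in both. Its GGACA at position 1018 had 0.824 over 28 reads and 0.936 over 70, whereas its GGACA at position 1749 had 0.123 over 70 and 0.136 over 136. The later site minus the earlier was -0.701 in replicate 1 and -0.800 in replicate 2, the largest gap of the 11 pairs of same 5-mer sites on 1 transcript with 20 reads in both, and in 6 of the 11 pairs the gap exceeded the difference between replicates. The GGACT at position 1782 had 0.488 and 0.353. Hdac3, the catalytic subunit of the NCoR complex, had a GGACA at position 1573 with 0.926 over 29 reads and 0.984 over 65, and a GGACC at position 1143 with 0.348 and 0.381.

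Hdac1 (chromosome 4, 129409897 to 129436506) had a GGACC at position 1837 with a fraction of 1 in both replicates over 26 and 48 reads, at a 5-mer where 5 of 38 member sites and 3.36% of sites in other genes reached 0.9 in replicate 2. The pseudogene named Hdac1-ps, which the name rule leaves out, was listed with a GGACC at position 1780 that also read 1 in both, over 75 and 136 reads. Reads of near-identical copies can be divided between them, so both Hdac1 sites, including the GGACC at position 891 with 0.182 over 16 reads and 0.320 over 45, are uncertain. Hdac6, a cytoplasmic tubulin deacetylase, had 4 sites from 0.0435 to 0.680 in replicate 2. Hdac5, Hdac7, Hdac8 and Hdac11 had none. Of the sirtuins, NAD-dependent deacylases, Sirt2 alone had sites among 5 listed genes: all 4 lay between 0.0909 and 0.211 in replicate 2 over 25 to 27 reads, none above its 5-mer median, and replicate 1 read 0, 0 and 0.333 at the 3 it listed. Sirt1, Sirt3, Sirt5 and Sirt6 were below 20 reads.

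Bromodomain readers had the most sites, 29 in 3 of 7 genes, of which Brd2 (chromosome 17, 34330997 to 34341608) held 24. Brd2 is a BET protein that binds acetylated histones at active promoters. Its sites lay on 3 transcripts, and 6 sites recurred on each with the same 5-mers in the same order at constant offsets of 109 and 153 nt, so they are repeats of 6 positions and not 18 independent ones. The GGACC at position 3860 of transcript ENSMUST00000025193.12 had 0.889 over 9 reads and 0.929 over 42, and its counterparts had 0.929 and 0.950 in replicate 2. The neighbouring GGACA sites at positions 3963 and 3969, 6 nt apart, were low at 0.148 and 0.258 in replicate 2 and 0.286 and 0.333 in replicate 1. On the other two transcripts these sites ran from 0.125 to 0.400 in replicate 2 and from 0.250 to 0.444 in replicate 1 where listed. The AGACT at position 3813 varied most, at 0.333, 0.280 and 0.824 on the 3 transcripts over 41, 34 and 26 reads. In replicate 1 it read 0.750 and 0.571 on the transcripts that listed it, over 9 and 12 reads, and the site that read 0.824 was not listed there. The first transcript differed by 0.417 between replicates, and the transcripts of replicate 2 by up to 0.544. How reads common to several isoforms were assigned is not given in the sources used here.

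**Figure D3:**
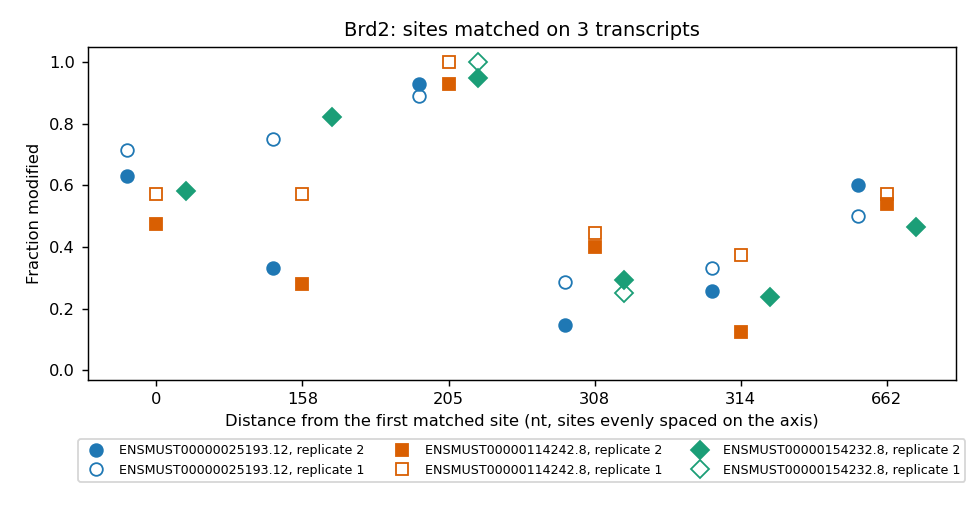
Fraction modified at the 6 Brd2 sites found on 3 transcripts, with filled symbols for replicate 2, open symbols for replicate 1 where listed, and distance from the first matched site in nt on the horizontal axis. The GGACC site reads 0.889 or more on every transcript, the pair of GGACA sites 6 nt apart reads 0.444 or less on every transcript, and the second site differs between transcripts and replicates.

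Brd7 (chromosome 8, 89057667 to 89088822), a SWI/SNF-associated reader, was high at all 4 sites: 0.933, 0.840, 0.889 and 0.808 at positions 546, 582, 1722 and 2308 in replicate 2, over 30 to 59 reads. Replicate 1 read 0.909 over 13 reads at position 582 and 0.905 over 25 at position 2308. Its lowest fraction in replicate 2 was 0.808. Brd1, a scaffold of histone acetyltransferase complexes, had 1 GGACA with 1 over 8 and 21 reads. Brd3, Brd8 and Brd9 had none.

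Within transcripts the fraction varied widely. Among 21 member transcripts with at least 3 sites, the range between the lowest and highest site in replicate 2 had a median of 0.838 and reached 0.971 (Prmt7). It was narrow in Sirt2 (0.120) and Brd7 (0.126). Coverage at the last site exceeded that at the first in 19 of the 21 transcripts, and the median ratio over all 21 was 1.43. Member sites lay farther along their transcripts than others, at a median position of 1846 (interquartile range 1147 to 3741) against 1326 (725 to 2193). Transcript length was not used here, so the distance to the end is not known.

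**Figure D4:**
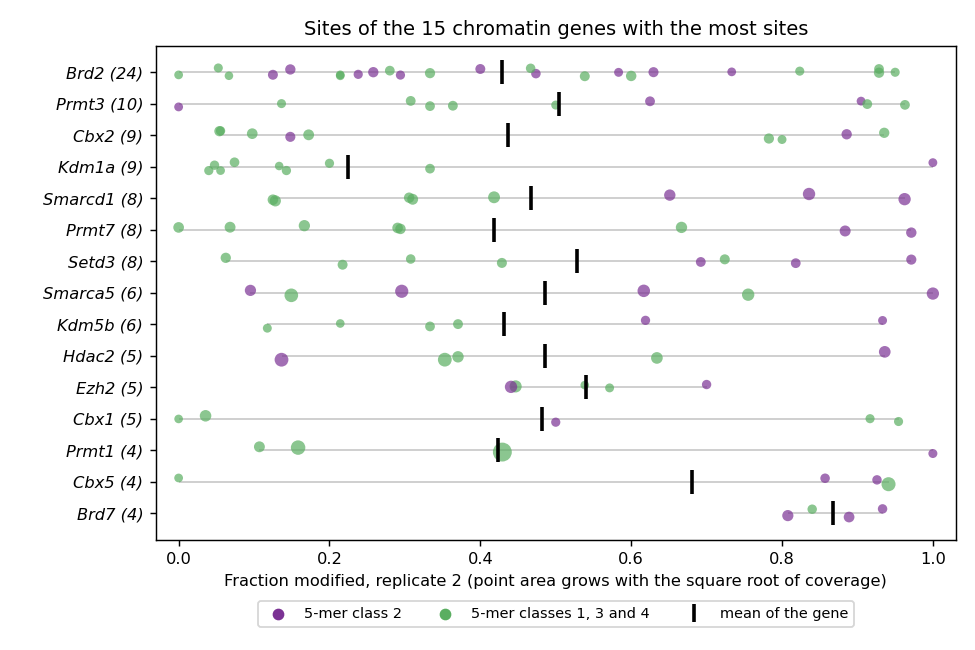
Fraction modified in replicate 2 at each site of the 15 genes with the most sites (number in brackets, ties at 4 sites broken by summed coverage), with purple for GGACA (class 2), green for the other 5-mers, and black ticks for gene means. Most genes hold sites near both ends of the axis, whereas Brd7 is high throughout and Kdm1a is low at all but 1 site.

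The replicates agreed closely at member sites that were deep in both. Over the 37 that had 20 or more reads in each library, the root mean square difference was 0.0938, Pearson's r was 0.962 and Spearman's rho 0.947 across sites, and 2 sites (5.41%) differed by more than 0.2. Over the 5184 such sites of other genes these values were 0.0999, 0.948, 0.937 and 5.94%. Sites share libraries and transcripts, so these are descriptions. The 2 sites were Prmt7 position 1826 and Chd4 position 5461. At the 74 sites with 5 to 19 reads in replicate 1 the root mean square difference was 0.213 (0.183 in other genes). Of these, 18 (24.3%) differed by more than 0.2, beside 23.0% in other genes. Some fractions of 1 in replicate 1 met much lower values in replicate 2, as at Arid3b position 3976, and others stayed at or near 1, as at Brd1 position 4415. In all, replicate 1 read 0 at 14 and 1 at 16 of its 111 member sites, against 6 and 5 of 158 in replicate 2.

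**Figure D5:**
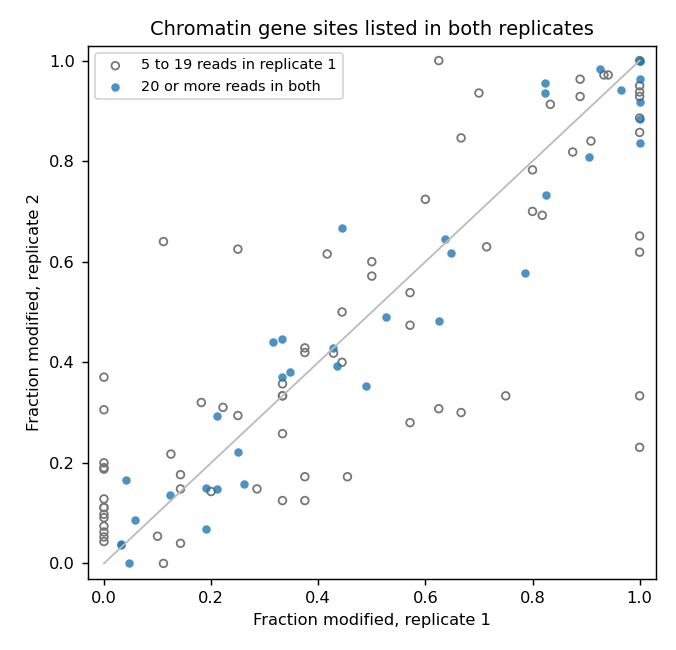
Fraction modified in replicate 1 against replicate 2 at the 111 member sites listed in both, with filled points for at least 20 reads in each, open points for 5 to 19 reads in replicate 1, and the line of equality. Filled points lie near the line, and the widest departures are open points.

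Further subunits and enzymes of the same complexes, outside the name rule, were taken from a list of 73 genes, of which 64 were listed and 31 had 175 sites. Their adjusted median was -0.0278 in replicate 1 and -0.0417 in replicate 2, and 72 of 175 were above 0 in replicate 2, beside 49.4% of all sites. At AGACT, where the members stood highest, these genes had a median of 0.308 in replicate 1 (19 sites) and 0.250 in replicate 2 (28 sites), against 0.250 and 0.263 in all genes other than the members. Mta1, a NuRD subunit, led with 19 sites and a mean of 0.324 in replicate 2, followed by the NuRD protein Mbd3 with 13 and a mean of 0.443 and the PRC1 protein Phc2 with 12 and a mean of 0.393. Rbbp4, a histone chaperone shared by NuRD and PRC2, was the deepest at up to 292 reads and had a mean of 0.246 over 4 sites.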

How the data were processed

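Direct RNA libraries of 2 day 6 organoid samples were analysed from the authors' plus tables. Coverage is a deposited whole-number count of reads per position (none under 5), and fraction modified is a deposited fraction from 0 to 1. The base caller, aligner and modification caller are not given in the sources used here. The submitters' processing notes name mm10, yet 1 of 90 member genes had a deposited start within 1000 bases of RefSeq GRCm38.p6, so coordinates are given as deposited. No position was placed in exons or untranslated regions. The minus tables held no member position and were not used. Members, role groups and the list of further chromatin genes were chosen with earlier results of these data known. Sites needed 20 reads in replicate 2 and were matched to replicate 1 on transcript and position, at any listed coverage. Medians were compared within each 5-mer and replicate, with means and SD over the 2 replicates and no test over sites. Named genes were the 15 with the most sites, the PRC2 and Cbx genes and each role group's gene with the most sites, and small groups were named in full. Named sites were the 5 highest (by the lower replicate), 5 lowest (by the higher replicate) and 5 least repeatable with 20 reads in both, the 3 deepest, and the 5 widest pairs of same 5-mer sites. Other sites given with values were chosen after their values were seen. The calculation was checked on simulated data with known shifts and many more member sites than here. That check does not bear on medians of few member sites. Alternatives covered coverage minimums, 1 transcript per gene, genes in place of sites and single replicates. Python 3.11.15, pandas 2.3.3, numpy 2.4.6 and scipy 1.17.1 were used. Some genes are not reported here by name.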

Additional observations from a re-analysis of the deposited data

How the results depend on the processing

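The 5-mer differences between members and other genes depended on the setting. At AGACT (0.0969) the mean difference was 0.0417 with 10 reads, 0.158 with 50 reads and 0.0124 with 20 reads in both (2 member sites). The value with 50 reads joined 0.01205 in replicate 1 (2 member sites) and 0.303 in replicate 2 (4 member sites). The mean difference was 0.0767 with 1 transcript per gene, -0.0161 with each gene counted once and -0.0216 without Brd2. At GGACA (0.00565) it was 0.0671 with 50 reads, 0.101 with 20 reads in both, 0.0777 with 1 transcript per gene, 0.0716 without Brd2, 0.0324 with 10 reads, 0.0484 with each gene once and -0.00085 at sites listed in both. At GGACC (-0.0434) it was 0.0111 with 50 reads, 0.0506 with 20 reads in both, 0.00723 with each gene once, -0.0349 with 1 transcript per gene, -0.0495 without Brd2 and -0.00833 at sites listed in both. At GGACT (0.0350) it was 0.0306 with 10 reads, 0.0454 with 50 reads, 0.0848 with 20 reads in both, 0.0600 with 1 transcript per gene, 0.0623 with each gene once, 0.0801 without Brd2 and 0.0907 at sites listed in both. With 1 replicate at a time, AGACT gave 0.0897 and 0.104, GGACA gave -0.0290 and 0.0403, GGACC gave -0.0473 and -0.0395, and GGACT gave -0.0134 and 0.0833. Leaving out Brd2 and keeping sites listed in both were chosen after seeing the data. The cause of these shifts was not tested.

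With 10 and 50 reads there were 382 and 44 member sites, 59 and 16 genes and 84 and 6 sites shared, and the replicate difference was 0.134 and 0.0722. With each gene counted once, the adjusted role medians became -0.0156 (SWI/SNF, from -0.0130), 0.0887 (Polycomb, from 0.136), 0.223 (HP1, from -0.0167), 0.159 (KMT and SETD, from 0.142), 0.0554 (PRMT, from 0.00250), 0.0913 (other SNF2 ATPases, from 0.0251), -0.0213 ± 0.0564 (KDM, SD, n = 2, from -0.0592) and 0.296 (BRD, from 0.120). Of the 10 named genes with a site of 50 reads, 6 moved by more than 1 SD. No paired analysis was possible because the samples form 1 group, so no replicate number pairs samples across groups.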

Other observations

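Replicate 1 held 17 member positions with at least 20 reads that replicate 2, although deeper, did not list at any coverage. They lay in 11 genes, and 14 were on transcripts that had a site in replicate 2. The deepest was a GGACA at position 888 of Prmt1 transcript ENSMUST00000207370.1, with 0.344 over 218 reads in replicate 1, on a transcript that reached 481 reads in replicate 2. Next was a GGACA at position 1576 of Hdac2 with 0.796 over 69 reads. Conversely, 47 of the 158 member sites were not listed in replicate 1 at all, such as the GGACA at position 563 of Smarca5 with 60 reads in replicate 2. The fractions of the 17 positions ran from 0.04 to 0.929. What decides listing was not tested.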
